A study of Mus musculus with 3008 samples.

Results

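Among regulatory T cells (Tregs) of the mouse spleen, 23.5% of cells (95% interval 20.2 to 27.1) carried high transcript levels of S100a4, S100a6 and Itgb1, and these cells are described here. They were chosen by the summed measured levels of these 3 genes: a spleen cell with at least 1000 unique molecular identifiers (UMIs, each marking 1 captured transcript) was a gate-high cell when the 3 genes together reached 25 UMIs per 10000 UMIs of that cell. It was a gate-low cell when they stayed under 10 per 10000, which held for 66.7% of cells, and the remaining 60 cells, or 9.79%, formed a middle group. The whole series holds 3008 cells in 3 libraries, 1 from spleen and 2 from colon lamina propria, called colon 1 and colon 2, of which colon 2 has 1772 cells. All cells came from male C57BL/6 (B6) mice aged 7 months that carry the Foxp3-Ires-Gfp reporter, in which green fluorescent protein marks cells that transcribe Foxp3. Live TCRb+ CD4+ GFP+ cells were sorted, from spleen after mechanical dissociation and from colon after collagenase and dispase digestion, and encapsulated in droplets by the inDrops method. No animal is named in the labels, so each library counts as 1 sample and its cells are not replicates.

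Tregs are CD4+ T cells that restrain immune responses and depend on the transcription factor Foxp3. In lymphoid organs, resting Tregs recirculate through blood and lymph with the help of homing receptors such as Ccr7, while effector Tregs have met antigen, carry suppressive and tissue-homing molecules and can enter organs such as the gut. S100a4 and S100a6 encode small calcium-binding proteins of the S100 family, and Itgb1 encodes the integrin beta chain that pairs with several alpha chains to bind extracellular matrix and endothelium. These genes are widely used as transcripts of activated and memory T cells.

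The gate itself used the 3 transcripts, so their levels are given as a description of how the cells were chosen. The gate sum had a median of 65.9 per 10000 in gate-high cells, from 25.9 to 219.1, against 17.6 in middle cells and 0 in gate-low cells. A gate-high cell held between 3 and 76 gating UMIs with a median of 14, and 79.5% of gate-low cells held none. S100a6 gave 53.2% of the gating UMIs of gate-high cells, S100a4 gave 32.9% and Itgb1 gave 13.9%. S100a6 was seen in 88.9% of gate-high cells, S100a4 in 77.8% and Itgb1 in 48.6%. The most common combination was S100a4 with S100a6 and without Itgb1, in 59 cells, and 42 cells held all 3 transcripts. Few cells passed on 1 gene, with 11 on S100a6, 5 on Itgb1 and 4 on S100a4. The threshold cut through a continuous range, since 12 cells lay from 25 to under 30 per 10000 and 16 lay from 20 to under 25. The lowest gate-high cell was at 25.9 and the highest middle cell at 24.6.

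**Figure D1:**
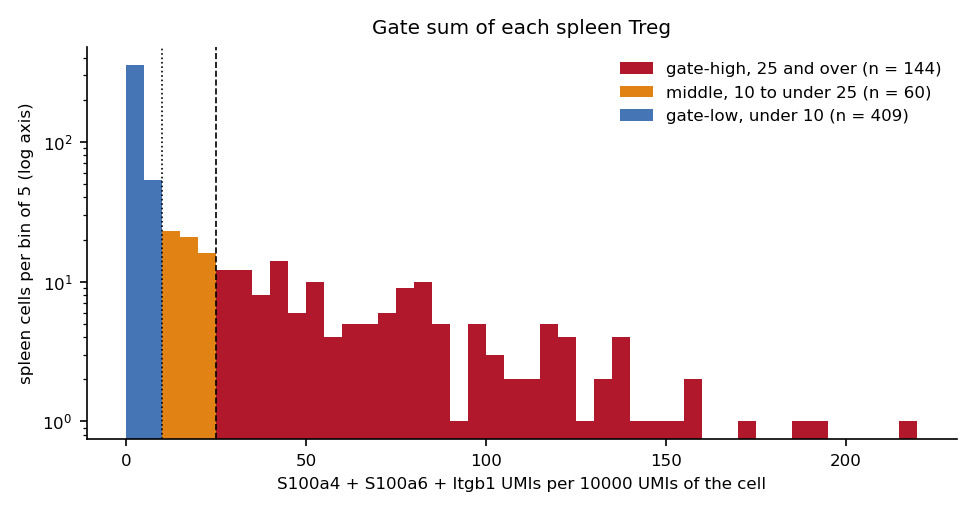
Histogram of the summed S100a4, S100a6 and Itgb1 UMIs per 10000 UMIs (x axis, bins of 5) over all spleen cells with at least 1000 UMIs, with the number of cells on a log axis (y). The gate-high cells spread from 25.9 to 219.1 with no gap at the dashed threshold of 25, and most of the gate-low cells sit at 0.

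Depth and composition differed between the groups. Gate-high cells held 337325 UMIs in all with a median of 2018.5 per cell, middle cells 122509 UMIs with a median of 1908.5, and gate-low cells 792241 UMIs with a median of 1794. Ribosomal protein genes took 21.9% of UMIs in gate-high cells, 26.4% in middle cells and 31.7% in gate-low cells. Because counts were scaled to each group's total, every ratio below moves with that share, and counts from totals that leave these genes out are given with the gene counts. Of the cell barcodes, 5 were shared by spleen and colon 1, 11 by spleen and colon 2 and 9 by the colon libraries, and gate-high spleen cells shared 1 with each colon library.

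The cells matched their sort. Foxp3 was at 284.6 UMIs per 1000000 UMIs (abbreviated CPM) in gate-high cells, 293.9 CPM in middle cells and 280.2 CPM in gate-low cells, which left the log2 ratio of gate-high over gate-low cells at 0.02 (95% interval -0.34 to 0.37). Cd4 was at 376.5 and 253.7 CPM, and Cd8a had 0 UMIs in gate-high cells and 1 in gate-low cells. Among 8 lists of markers of other cell types, the genes with 0 UMIs in gate-high cells were 6 of 10 for B cells, 3 of 4 for plasma cells, 9 of 11 for macrophages or dendritic cells, 5 of 6 for granulocytes, 5 of 7 for erythroid cells or platelets, 8 of 11 for CD8 or NK cells, 6 of 8 for conventional helper cells and 4 of 7 for stroma. Defining genes at 0 UMIs in both groups included H2-Ab1, Lyz2, Csf1r, Tyrobp, S100a8, Hbb-bs, Jchain and Gzma. Of the markers with at least 20 UMIs over both groups, those higher per UMI in gate-high cells were Cd74 with 32 UMIs against 25, Cst3 with 48 against 69 and Ccl5 with 57 against 69. The summed marker lists were at 103.8 CPM against 55.5 for B cells, 151.2 against 97.2 for macrophages or dendritic cells, 240.1 against 174.2 for CD8 or NK cells and 17.8 against 0 for erythroid cells or platelets, the last from 5 Hba-a2 UMIs in 1 cell and 1 Gp9 UMI. They were at 50.4 against 70.7 for plasma cells, 35.6 against 51.8 for granulocytes, 20.8 against 32.8 for helper cells and 91.9 against 118.7 for stroma. At least 2 markers of 1 other cell type were found in 8 gate-high and 10 gate-low cells. Among the 5% of spleen cells with the most UMIs were 16 gate-high and 12 gate-low cells. Gate-high cells were the smaller group, at 23.5% of spleen cells with at least 1000 UMIs against 66.7% for gate-low cells. Cells with such markers and cells with the most UMIs were therefore each a larger share of gate-high than of gate-low cells. No doublet caller was run. Among genes with at least 100 CPM in either group, called eligible here, 10.8% were at least 2-fold higher without the cells holding such markers and 11.3% without the cells with the most UMIs, against 10% with all cells. All intervals in the text are exact 95% intervals that cover counting error only, since 1 spleen library gives no spread between samples and no test.

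Gate-high spleen Tregs differed from gate-low ones at many genes, with more of them higher than lower. Genes with at least 100 CPM in either group numbered 1839, the gating genes left out. Of these, 10% were at least 2-fold higher and 34 genes (1.85%) at least 2-fold lower in gate-high cells. The interval left out 0 for every one of the called genes. At these totals the 100 CPM minimum and the 2-fold rule ensure that, so it adds no support. The median log2 ratio over all eligible genes was 0.22, while 84 of 86 eligible ribosomal protein genes lay below 0 with a median of -0.52 and none of them past 2-fold. The excess of higher genes depended on scaling. With trimmed mean of M values (TMM) factors from edgeR, 92 genes were higher and 70 lower of 1808 eligible, with median of ratios factors from DESeq2 the counts were 89 and 80, and with totals that leave out ribosomal protein genes 6.13% were higher and 5.74% lower of 2528 eligible genes. These scalings moved the median of the eligible genes to -0.03, -0.06 and -0.01, so a ratio below is best read against the median of 0.22.

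**Figure D2:**
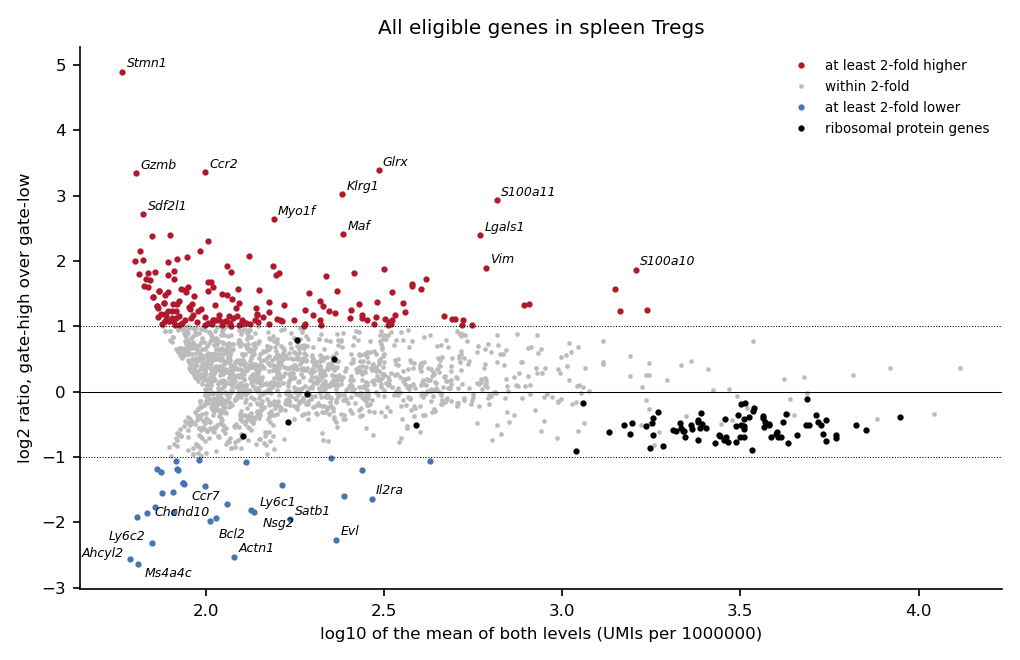
Log2 ratio of gate-high over gate-low spleen cells (y) against log10 of the mean level of both groups in CPM (x) for 1839 eligible genes, one point per gene. The genes at least 2-fold higher (10%) are red, the 34 at least 2-fold lower are blue, ribosomal protein genes are black, and the 12 highest and 12 lowest named genes are labelled.

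Of the marker genes that accompany the gate, Klrg1 and Ccr2 were 8.11-fold and 10.2-fold higher in gate-high cells, and Trat1 was 3.2-fold higher on 15 UMIs, each detected in a minority of the cells. The name effector-like stands for a range of the gate sum and not for a separate cell type. Levels of these markers did not fall step by step with the gate sum. Klrg1 was at 408.1 CPM in middle cells against 429.9 in gate-high cells, and Trat1 at 65.3 against 44.5. Ccr2 was at 16.8 CPM, on 2 UMIs, in gate-high cells from 25 to under 50, against 17.7 in gate-low cells. Whether the markers suit the name was not tested.

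Most measured genes of the S100, annexin and galectin families that the gate did not use were higher in gate-high cells. S100a11, an S100 protein that partners annexins, was at 1156.2 CPM in gate-high cells, 587.7 CPM in middle cells and 151.5 CPM in gate-low cells, a 7.63-fold difference (6.21 to 9.45). S100a10, which forms a complex with annexin A2, was at 2529, 1347 and 692.97 CPM in the same order. Lgals1, encoding the glycan-binding protein galectin-1, was at 990.1, 391.8 and 188.1 CPM, a 5.26-fold difference (4.33 to 6.43). Each of these genes followed the order gate-high, middle, gate-low. S100a11 was detected in 70.1% of gate-high cells and 15.6% of gate-low cells, and after each cell was thinned to 1000 UMIs the shares were 47.9% (39.5 to 56.4) and 10.5% (7.71 to 13.9). The intermediate filament gene Vim was at 963.5 CPM against 258.8, and Anxa2, encoding annexin A2, at 168.98 against 34.1.

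Of 17 genes in the list of S100, annexin and galectin genes outside the gate, 12 had at least 20 UMIs over both groups. The list also holds Ahnak, Crip1 and Vim, which belong to none of these families. Of those 12, 9 were at least 2-fold higher and none lower in gate-high cells, with a median log2 ratio of 1.82, beside 11.1% higher, 8.12% lower and a median of 0.14 over all 6333 genes with as many UMIs. Those shares of 11.1% and 8.12% stand behind each list count that follows. Ahnak and Vim were among the 9 higher genes, with log2 ratios of 1.87 and 1.90, so that count is not of the named families alone. The 3 within 2-fold were Anxa5 at 0.67, Anxa7 at 0.45 and Lgals9 at 0.57 on the log2 scale. The other 5 genes had under 20 UMIs. Among them S100a8 and S100a9, the S100 genes of neutrophils, had 0 UMIs in both groups, and Lgals3, named here after its values were seen, had 18 UMIs in gate-high cells and 1 in gate-low cells.

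S100a4 and S100a6 lie next to each other on chromosome 3 of the mm10 assembly, at chr3:90603771-90606045 and chr3:90612882-90624181 on the plus strand, 6837 bases apart. S100a11 (chr3:93520488-93526287) and S100a10 (chr3:93555080-93564643) lie on the same chromosome, with S100a10 starting 2930899 bases past the end of S100a6. Itgb1 is at chr8:128685654-128733200. All are protein-coding in the GENCODE annotation. Outside chromosome 3, Glrx, the glutaredoxin gene whose product reduces mixed disulfides of proteins with glutathione, is at chr13:75839868-75850154, and Gzmb, the gene of the cytotoxic protease granzyme B, at chr14:56258838-56262260 on the minus strand. Klrg1 is at chr6:122270596-122282882 on the minus strand, Ccr2 at chr9:124101950-124113557 and Il2ra at chr2:11642807-11693193, both on the plus strand.

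Promoter windows of these highest genes are shown because 3 of them hold the letters TGANTCA, which factors of the Fos and Jun families are known to bind. Each window runs from 250 bases before to 50 bases after the RefSeq start on GRCm38.p6, written 5′ to 3′ on the gene's strand, with the matches in capitals. S100a11 (chr3:93520246-93520545, plus strand) has 2 matches, the nearer beginning 38 bases before the start, Glrx (chr13:75839635-75839934, plus strand) has 1 at 98 bases and Gzmb (chr14:56262285-56262584, minus strand) has 1 at 58 bases.
S100a11: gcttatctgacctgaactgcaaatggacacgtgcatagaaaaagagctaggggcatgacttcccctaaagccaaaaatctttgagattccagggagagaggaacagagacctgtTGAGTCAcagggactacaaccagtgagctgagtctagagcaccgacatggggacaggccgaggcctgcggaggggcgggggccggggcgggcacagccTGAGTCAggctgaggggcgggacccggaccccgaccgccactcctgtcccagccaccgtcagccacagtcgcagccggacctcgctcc
Glrx: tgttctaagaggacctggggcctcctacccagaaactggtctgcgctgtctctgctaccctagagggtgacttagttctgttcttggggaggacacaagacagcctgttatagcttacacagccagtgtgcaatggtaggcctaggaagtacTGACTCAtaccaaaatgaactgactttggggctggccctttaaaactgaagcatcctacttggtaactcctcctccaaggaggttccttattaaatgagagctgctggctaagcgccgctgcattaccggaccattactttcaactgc
Gzmb: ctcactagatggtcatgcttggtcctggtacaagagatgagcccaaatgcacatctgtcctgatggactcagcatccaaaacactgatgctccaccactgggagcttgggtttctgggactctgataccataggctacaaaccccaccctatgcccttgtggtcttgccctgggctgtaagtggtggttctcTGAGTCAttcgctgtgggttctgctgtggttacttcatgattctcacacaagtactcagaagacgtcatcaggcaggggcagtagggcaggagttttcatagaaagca
The string reads the same on both strands. It was present in 3 of the 7 highest genes that have a window, in 1 of 11 of the lowest genes (Ahcyl2), and in 2144 of all 27025 windows (7.93%). It was picked out after its matches were seen, from 5 strings searched on both strands. The others were TATAA in 3 of 7 highest and 2 of 11 lowest genes (25.5% of all windows), CACCC in 5 and 7 (56.7%), GGGTGTGG in 0 and 1 (3.57%), and TGTGGTTT in 0 and 0 (1.86%). Every match of GGGTGTGG also holds CACCC on the other strand, so those counts overlap. The letters are a description of these windows, and nothing about binding was measured.

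Most measured effector and suppressive genes were higher in gate-high cells. Of 21 genes of that list with at least 20 UMIs, 16 were at least 2-fold higher and none lower, with a median log2 ratio of 1.64, and the interval left out 0 for 15 of the 16. The other 4 of the 25 listed genes had too few UMIs. The count of higher genes was 9 after thinning every cell to 1000 UMIs and 10 among cells with at least 2000 UMIs. It was 11, with 1 lower, for a gate of S100a4 and Itgb1. Each alternative counted only genes that still had at least 20 UMIs, so these counts need not be out of 21. The median stayed between 1.41 and 1.70 in the alternatives run. Klrg1, an inhibitory lectin-like receptor of antigen-experienced T cells, was at 429.9 CPM in gate-high cells, 408.1 in middle cells and 53.01 in gate-low cells. The difference between the outer groups was 8.11-fold (5.72 to 11.7), and the transcript was seen in 39 gate-high, 12 middle and 14 gate-low cells, or 27.1%, 20% and 3.42% of each group. Middle cells were therefore close to gate-high cells for Klrg1, in contrast to the stepped order of the S100 genes. Thinned to 1000 UMIs, the shares were 21.5% (15.1 to 29.1) in gate-high and 2.20% (1.01 to 4.14) in gate-low cells. The sort holds no other cell type to give a background share, so the gate-low share is given beside it.

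Of the costimulatory and checkpoint receptors named here, Icos and Tnfrsf1b were at least 2-fold higher and 4 others were not. Icos, a costimulator of effector Tregs, was at 575.1 CPM against 184.3, a log2 ratio of 1.64 (1.32 to 1.96). Tnfrsf1b, encoding the TNF receptor TNFR2, was at 358.7 CPM against 150.2. Ctla4, which strips B7 ligands from antigen-presenting cells, was at 675.9 CPM against 367.3, a log2 ratio of 0.88 (0.62 to 1.13) that stayed under 2-fold. Of the receptors Tnfrsf9, Tnfrsf4 and Tnfrsf18, which promote survival of activated T cells, none passed 2-fold, with log2 ratios of 0.17, 0.48 and 0.24. Fgl2, a secreted suppressive molecule, was at 133.4 CPM against 25.2. Cd44, the hyaluronan receptor of antigen-experienced T cells, was at 183.8 CPM against 61.9.

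Some effector transcripts rested on few cells. Gzmb had 39 UMIs in 10 gate-high cells, 4 UMIs in 1 middle cell and 9 UMIs in 2 gate-low cells, or 115.6, 32.7 and 11.4 CPM. Il10, the suppressive cytokine interleukin-10, had 29 UMIs in 5 gate-high cells, 18 of them in a single cell, against 19 UMIs in 7 gate-low cells. Its log2 ratio of 1.84 (0.96 to 2.76) turned to -2.80 when the gate was built from S100a4 and Itgb1 without S100a6. Areg, the growth factor amphiregulin, had 20 UMIs in 13 cells against 4 UMIs in 4 cells. Nfil3, a basic leucine zipper factor, had 20 UMIs in 11 cells against 3 UMIs in 2 cells. These genes were rare in spleen Tregs of either group, and colon Tregs carried far more, with Gzmb at 2660 and 2672 CPM and Il10 at 1367 and 1501 CPM in colon 1 and colon 2.

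Genes of tissue-repair Tregs overlapped that list. Of 8 with at least 20 UMIs, 6 were at least 2-fold higher and none lower, with a median log2 ratio of 1.66. The count was 3 after thinning and 3 among cells with at least 2000 UMIs. Both alternatives counted only genes that still had at least 20 UMIs, so neither count need be out of 8. Of these 8 genes, 5 (Klrg1, Areg, Nfil3, Il10 and Batf) stand in the effector list too. Il1rl1, the receptor ST2 for the alarmin interleukin-33, was low, with 16 UMIs in 10 gate-high cells and 17 UMIs in 14 gate-low cells, or 47.4 against 21.5 CPM. Gata3, a transcription factor linked to ST2 expression, was at 373.5 CPM against 254.97, a log2 ratio of 0.55 (0.22 to 0.88). Il1rl1 was thus just past 2-fold, with a log2 interval from 0.06 to 2.22, and Gata3 was within it. Penk, the proenkephalin gene, was at 112.7 CPM against 40.4, from 4 gate-high and 9 gate-low cells. The other 5 of the 13 listed genes had too few UMIs.

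Among receptors that guide migration, Ccr2 stood highest. Ccr2, the receptor for monocyte chemoattractant chemokines, had 61 UMIs in 25 gate-high cells, 16 UMIs in 5 middle cells and 14 UMIs in 6 gate-low cells, which are 180.8, 130.6 and 17.7 CPM. The outer groups differed 10.2-fold (5.66 to 19.8). Ccr4, a skin and tissue homing receptor, was at 74.1 CPM against 17.7, the sphingosine phosphate receptor gene S1pr4 at 210.5 against 71.9, and Cxcr3, which guides T cells to interferon-driven inflammation, at 100.8 against 45.4. Those 4 were the members at least 2-fold higher among 12 with enough UMIs. Ccr7 was the 1 member at least 2-fold lower, at 53.4 against 175.5 CPM. The egress receptor gene S1pr1 was even, with 349.8 and 352.2 CPM. Ccr6, Ccr8, Ccr9, Cxcr6 and Gpr15, all linked to barrier tissues, had at most 16 UMIs in either group and were among 9 listed receptors under the minimum of 20 UMIs.

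Integrin chains other than Itgb1 were mostly level. Of 8 of the 13 listed with enough UMIs, 2 were at least 2-fold higher and none lower, beside 11.1% and 8.12% over all genes with as many UMIs, and the list's median of 0.20 turned to -0.03 under DESeq2 factors. Itgae, encoding the alpha chain that binds E-cadherin on epithelium, was at 94.9 CPM in gate-high cells, 40.8 in middle cells and 23.98 in gate-low cells, in 18, 3 and 10 cells. Its partner chain gene Itgb7, which also forms the gut-homing integrin with the alpha-4 chain, was at 492.1, 302.02 and 171.7 CPM. Alpha-4 (Itga4) and alpha-L (Itgal) had log2 ratios of 0.13 and 0.17, and Itga6, the laminin-binding chain, had -0.69 (-1.48 to 0.03).

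Of 17 measured lineage transcription factors (of 23 listed), 6 were at least 2-fold higher, 1 was lower and 10 were within 2-fold, with a median of 0.78. After thinning to 1000 UMIs, 2 were higher and 2 lower among the members that kept at least 20 UMIs. With a gate of S100a4 and Itgb1 the median was 0.28. Maf, which takes part in Il10 control in T cells, was at 409.1 CPM in gate-high cells, 302.02 in middle cells and 77 in gate-low cells, in 55, 15 and 30 cells. Id2, an inhibitor of E proteins, was at 213.4 CPM against 50.5. Prdm1 and Irf4, which encode Blimp-1 and a partner factor of effector differentiation, had 20 and 17 UMIs in gate-high cells and 10 and 8 in gate-low cells. Runx1 and Ikzf3 were the other members past 2-fold, with log2 ratios of 1.07 and 1.42. Bcl6, the factor of follicular T cells, was the lower one, with 2 UMIs in 1 cell against 20 UMIs in 13 cells, and its log2 ratio turned to 0.066 among cells with at least 2000 UMIs. Ikzf2, encoding Helios, which is abundant in Tregs of thymic origin, was at 1099.8 CPM in gate-high cells against 600.8 in gate-low cells, a log2 ratio of 0.87 (0.67 to 1.07). Tbx21 and Ahr had at most 3 UMIs in either group.

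**Figure D3:**
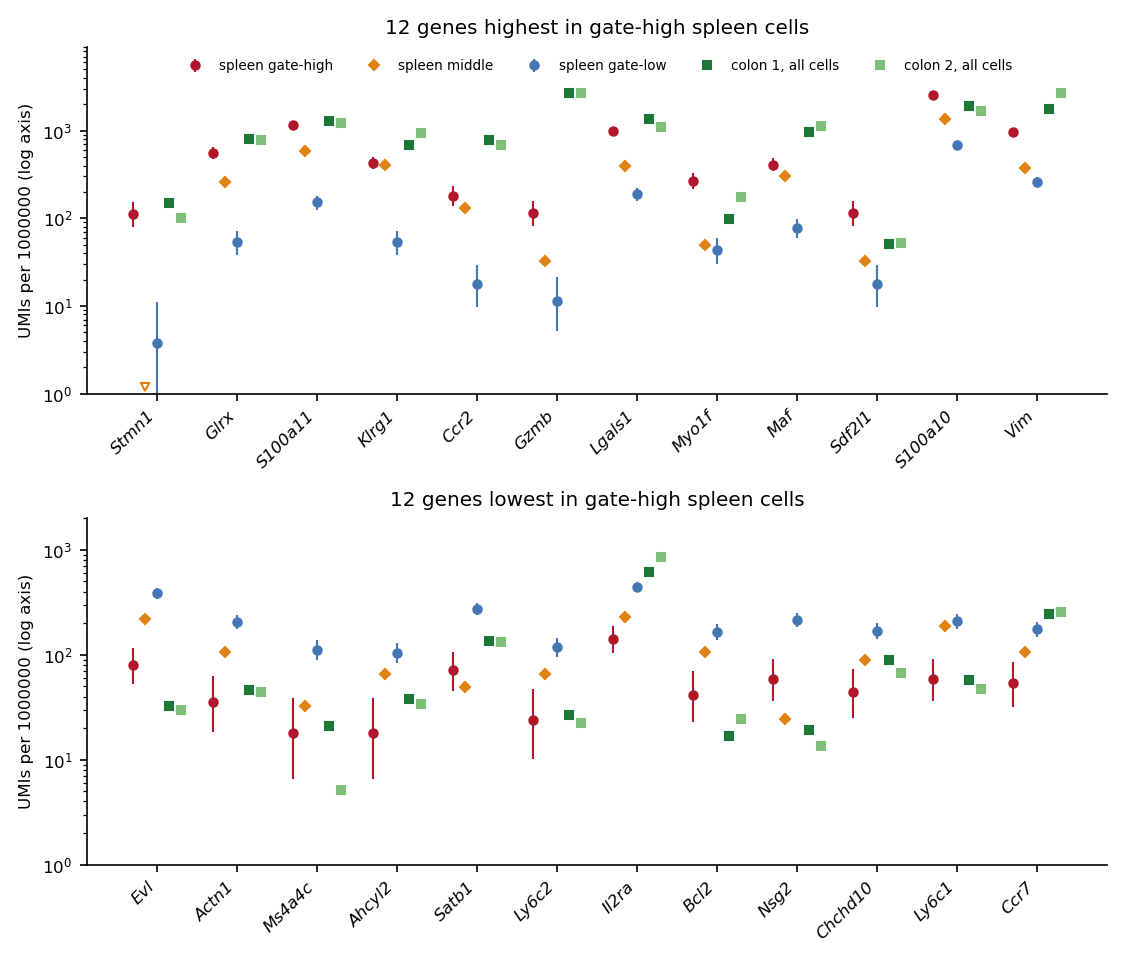
Levels in CPM (y, log axis) of the 12 highest and 12 lowest named genes in gate-high, middle and gate-low spleen cells and in all cells of colon 1 and colon 2, with 95% counting intervals on the gate-high and gate-low points. S100a11, S100a10 and Lgals1 step down through the spleen groups, Klrg1 and Ccr2 stay high in middle cells, and an open triangle at the foot marks a level of 0.

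Most genes of resting, recirculating Tregs were lower in gate-high cells. Of 20 genes of that list, all with at least 20 UMIs, 12 were at least 2-fold lower and none higher, with a median log2 ratio of -1.39. Among cells with at least 2000 UMIs, 8 were lower with a median of -0.89. With a gate of S100a4 and Itgb1, 11 were lower and 1 higher, with a median of -1.04. The other list alternatives gave 11 or 12 lower and none higher, with medians from -1.62 to -1.15. Each alternative counted only genes that still had at least 20 UMIs. Satb1, a chromatin organizer active in early Treg development, was at 71.1 CPM in gate-high cells, 48.98 in middle cells and 273.9 in gate-low cells. Bach2, a repressor that holds T cells in a resting state, had 7 UMIs against 73, or 20.8 against 92.1 CPM. Bcl2, the survival factor, was at 41.5 against 164.1 CPM. Lower by a similar size were Actn1, an alpha-actinin gene, at 35.6 against 204.5 CPM and Nsg2 at 59.3 against 213.3 CPM. Dapl1 had 0 UMIs in gate-high cells and 30 in gate-low cells, at least 4.26-fold lower with a floor of 3 counts over the group, and it enters the median at that bound.

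The homing receptor gene Ccr7 was 3.29-fold lower (2.01 to 5.71), detected in 13 gate-high and 85 gate-low cells. The transcription factor genes Tcf7 and Klf2, which maintain the resting programme and its homing receptors, had log2 ratios of -0.32 (-0.99 to 0.32) and -0.22 (-0.47 to 0.03). Their intervals held 0. Klf2, Tcf7 and S1pr1 were thus all within 2-fold, while Ccr7, Satb1 and Bach2 were not.

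Evl, a regulator of actin filament growth, was the lowest gene by the rule, at 80.04 CPM in gate-high cells, 220.4 in middle cells and 383.7 in gate-low cells. The surface protein genes Ly6c1 and Ly6c2 were at 59.3 against 208.3 and 23.7 against 117.4 CPM. These paralogs are near-identical and belong to a multigene family, as does Ms4a4c (17.8 against 111.1 CPM), so their counts may be split between copies. The last of the 12 lowest genes, Ahcyl2 and Chchd10, were at 17.8 against 104.8 and 44.5 against 169.1 CPM.

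Core Treg genes did not move together. Of 16 identity genes, 3 were at least 2-fold higher and 3 lower, and the median of 0.13 turned to -0.07 under TMM factors and to -0.10 under DESeq2 factors. Il2ra, the high-affinity interleukin-2 receptor chain CD25, was at 142.3 CPM in gate-high cells, 228.6 in middle cells and 441.8 in gate-low cells, a 3.1-fold difference (2.29 to 4.29). It was detected in 16.7% of gate-high, 25% of middle and 34.5% of gate-low cells, and the gene of the receptor's beta chain, Il2rb, was nearly level with a log2 ratio of -0.19 (-0.55 to 0.16). Gpr83 and Lrrc32, a receptor and the membrane anchor of latent TGF-beta, were at 20.8 against 94.7 and 38.5 against 112.3 CPM. Nrp1, a surface receptor abundant on thymic Tregs, was higher at 506.9 against 218.4 CPM, as were the actin-capping gene Capg at 435.8 against 167.9 CPM and Entpd1, the ectonucleotidase CD39, with 11 UMIs against 10 and a log2 interval from -0.01 to 2.76. Izumo1r, the folate receptor family member of Tregs, was at 880.5 against 1337 CPM.

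Most transcripts of the T cell receptor complex and its proximal signalling differed little, and signalling itself was not measured. Of 19 genes of the receptor complex and its proximal signalling, 18 were within 2-fold, with a median log2 ratio of 0.23 that changed sign under DESeq2 factors. The exception was Trat1, an adaptor that stabilizes the receptor complex at the surface, with 15 UMIs in 11 gate-high cells, 8 UMIs in 4 middle cells and 11 UMIs in 7 gate-low cells. These are 44.5, 65.3 and 13.9 CPM, and the log2 ratio was 1.68 (0.46 to 2.95). Early response genes split, with Dusp1 (669.98 against 309.2 CPM) and Fosb (13 UMIs in 4 cells against 8 UMIs in 4 cells) at least 2-fold higher and Egr1 and Myc at least 2-fold lower among 15 measured of 17. The ratio of Fosb turned from above 0 to -0.82 when every cell was thinned to 1000 UMIs. Nr4a1, a reporter gene of receptor signalling, had a log2 ratio of -0.31 (-0.67 to 0.04).

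Interferon response genes also split. Of 14 measured, 2 were at least 2-fold higher and 4 lower, beside 11.1% and 8.12% of all genes with as many UMIs, and the median was near 0 and changed sign with scaling. Ifi27l2a was at 2034 CPM against 862.1 and Rtp4 at 103.8 against 34.1, while Usp18 was at 17.8 against 69.4 and Ifit1 at 8.89 against 41.6 CPM. The lower genes were rare, with 2 to 6 UMIs in gate-high cells and 21 to 55 in gate-low cells.

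Of the proliferation transcripts, Stmn1 and Mki67 were found in a few gate-high cells and Hmgb2 in many. Stmn1, a microtubule regulator of dividing cells, had 38 UMIs in 7 gate-high cells, 0 in middle cells and 3 UMIs in 3 gate-low cells, a log2 ratio of 4.89 (3.24 to 7.23). Mki67, encoding the proliferation antigen Ki-67, had 25 UMIs in 11 gate-high cells, 1 UMI in 1 middle cell and 6 UMIs in 4 gate-low cells. Hmgb2, a chromatin protein of cycling cells, was at 634.4 CPM in gate-high cells and 191.9 CPM in gate-low cells. It was seen in 68 and 96 cells, or 47.2% and 23.5% of each group. Of 10 measured cell cycle genes, 5 were at least 2-fold higher with a median of 0.94. When every cell was thinned to 1000 UMIs the median was -0.08 with 1 gene higher. That median covers only the members that kept at least 20 UMIs after thinning, so it need not be over the same 10 genes. Among cells with at least 2000 UMIs the median was 1.07, with 5 genes higher and 1 lower, and 3 genes were higher under TMM factors, DESeq2 factors and totals without ribosomal protein genes. Replication gene Mcm6 was among the 5 and its log2 ratio of 1.05 turned to -0.34 on thinning.

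Actin cytoskeleton genes leaned higher. All 20 were measured, 6 were at least 2-fold higher, none was lower, and the median was 0.67. Myo1f, a myosin of leukocyte adhesion and motility, was at 266.8 CPM in gate-high cells, 48.98 in middle cells and 42.9 in gate-low cells, and Tagln2 at 569.2, 334.7 and 185.6 CPM. The other 4 were Capg, Flna, Arpc1b and Lsp1, with log2 ratios of 1.38, 1.14, 1.10 and 1.02. Under TMM factors, DESeq2 factors and totals without ribosomal protein genes 3 genes of the list passed 2-fold, since each of these scalings lowers every ratio by the same amount and takes Flna, Arpc1b and Lsp1 below it. Tmsb10, a monomer-binding protein gene, was level at -0.02.

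Some lists held no gene past 2-fold in either direction in the main comparison. These were glycolysis (10 measured genes, median 0.03), MHC class I presentation (10 genes, median 0.25) and stress and heat shock (9 measured genes, median -0.08). The glycolysis median turned to -0.17 under TMM and -0.21 under DESeq2 factors. The stress list includes Zfp36 at 0.84. In alternatives, 1 glycolysis gene was lower under DESeq2 factors, after thinning, with cells weighted equally and against all cells under 25 per 10000. Of the stress genes, 1 was higher and 1 lower with a gate of S100a4 and Itgb1, and 1 was higher with S100a6 and Itgb1. Both groups came from the same spleen library, and an effect of cell handling on these genes was not tested. Of 11 survival and death genes, Bcl2 and Fas were at least 2-fold lower and none was higher, and the log2 ratio of Fas turned from -1.05 to 0.42 among cells with at least 2000 UMIs. Of 14 TNF receptor and NF-kB genes, Tnfrsf1b alone passed 2-fold, and the list's median of 0.21 turned to -0.02 under DESeq2 factors.

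**Figure D4:**
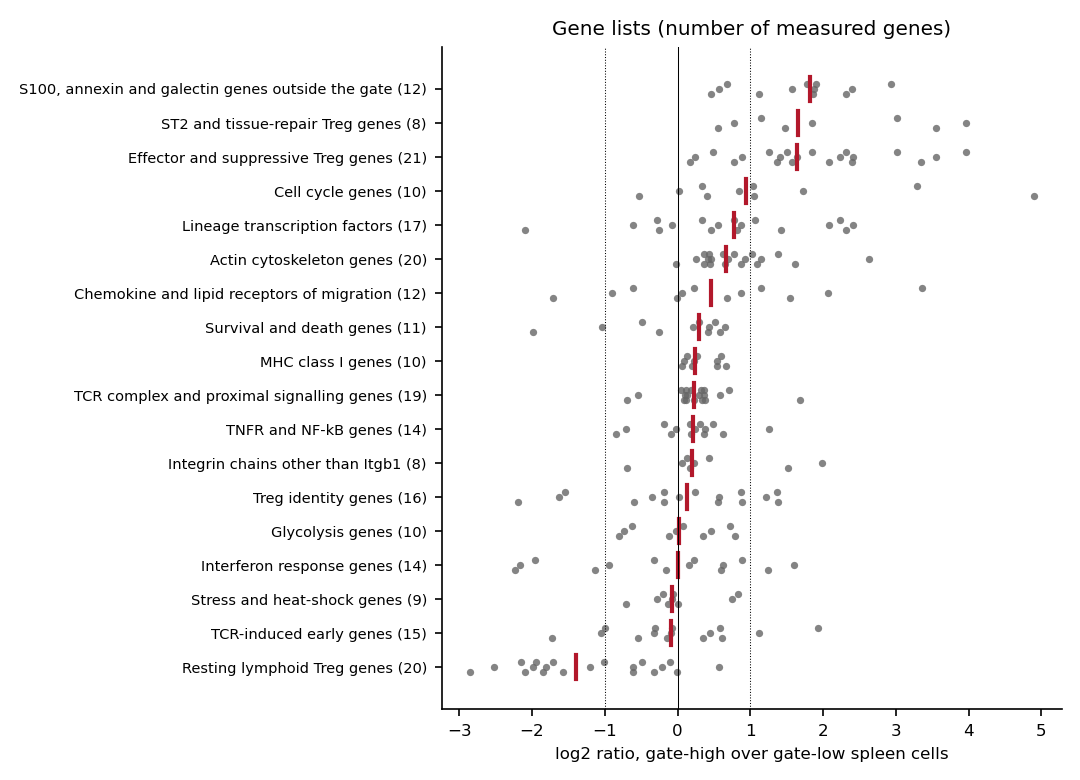
Log2 ratio of gate-high over gate-low spleen cells (x) for each measured gene of 18 lists (grey points), with the list median as a red bar and the number of measured genes in brackets. The medians of the S100, ST2 and effector lists lie at 1.82, 1.66 and 1.64 and that of the resting list at -1.39, and medians near 0 (Treg identity, integrins, TCR complex, TNFR, interferon, glycolysis and TCR-induced genes) or that of the cell cycle list change sign under at least 1 alternative. For the cell cycle list this is thinning, over the members that kept at least 20 UMIs.

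Among the 12 highest genes, Glrx had the largest fold of those with at least 100 UMIs in gate-high cells, at 557.3 CPM in gate-high cells, 261.2 in middle cells and 53.01 in gate-low cells, a 10.5-fold difference (7.49 to 15.1). It was seen in 54 gate-high, 11 middle and 21 gate-low cells. Sdf2l1, a chaperone cofactor of the endoplasmic reticulum, had 39 UMIs in 17 gate-high cells against 14 UMIs in 8 gate-low cells.

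The gate-high cells differed among themselves, and the subdivisions below were made after their values were seen. At or above 50 per 10000 lay 92 cells and from 25 to under 50 the other 52. S100a11 was at 1265 and 957.2 CPM in these steps, with 587.7 in middle and 151.5 in gate-low cells. Lgals1 was at 1301 and 419.8 CPM, with 391.8 in middle and 188.1 in gate-low cells. S100a11 thus stepped down with the gate, while Lgals1 was concentrated above 50. From 25 to under 50 its interval (311.6 to 553.5 CPM) overlapped that of middle cells (288.9 to 519.5 CPM). Ccr2 did not follow the steps, since 59 of its 61 UMIs were in cells above 50, with 270.4 CPM there, 16.8 CPM from 25 to under 50 and 130.6 CPM in middle cells. Gzmb likewise had 38 of its 39 UMIs above 50. Il2ra ran the other way, at 114.6, 193.1, 228.6 and 441.8 CPM from the highest to the lowest step. Ctla4 was even within the gate, at 641.5 and 738.9 CPM.

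Klrg1 split the gate-high cells in another way. The 39 cells with a Klrg1 UMI (median 2139 UMIs) held Gzmb at 276.8 CPM, against 53.4 CPM in the other gate-high cells (median 1942 UMIs). Gata3 was at 617.5 CPM against 279.4, and Il10 at 223.6 CPM against 32.9, or 21 UMIs against 8. Of those 21 Il10 UMIs, 18 were in a single cell. Il1rl1 was seen as 1 UMI against 15, and Ccr4 as 1 UMI against 24. Lgals1 and S100a10 were even, at 990.1 against 990.2 and 2555 against 2519 CPM. Klrg1 and Ccr2 were detected together in 9 cells, among 39 with Klrg1 and 25 with Ccr2. Ccr2 and Lgals1 shared 23 cells, among 25 with Ccr2 and 89 with Lgals1. Deeper cells are more likely to show any pair of transcripts, and these counts rest on few UMIs.

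Across all spleen cells with at least 1000 UMIs, the genes whose level per UMI was most like the gate sum were S100a11 (Spearman's rho 0.52), S100a10 (0.48), Lgals1 (0.42), Glrx (0.39), Maf (0.36), Srgn (0.34), Klrg1 (0.34), Serinc3 (0.34), Ahnak (0.33) and Myo1f (0.33). The UMIs per cell had a rho of 0.18 with the gate sum. These values describe cells of 1 library that share depth and composition. Ahnak, encoding a large scaffold protein that binds the S100a10 and annexin A2 complex, was at 495.1 CPM in gate-high cells against 135.1 in gate-low cells. Srgn, the proteoglycan of secretory granules, was at 2431 against 1021.1 CPM, and Serinc3, a membrane protein gene, at 1153.2 against 455.7 CPM.

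The same gate was applied to the colon libraries, whose cells took no part in the rule's choice of spleen cells. Gate-high cells made up 23.5% of spleen cells (20.2 to 27.1), 62.5% of colon 1 cells (58.5 to 66.3) and 61.6% of colon 2 cells (59.3 to 63.9). Tissue and dissociation cannot be told apart in these shares. In colon 1, 91 of 1939 eligible genes (4.69%) were at least 2-fold higher and 96 (4.95%) at least 2-fold lower in gate-high cells. In colon 2 the counts were 51 of 1879 (2.71%) and 29 (1.54%). The spleen shares of 10% higher and 1.85% lower thus lay above both colon libraries for higher genes and below colon 1 for lower genes. Under TMM factors the order turned for colon 1, with 5.09% of spleen, 6.35% of colon 1 and 3.67% of colon 2 genes higher. DESeq2 factors gave 4.92%, 6.4% and 3.61% in the same order. Colon groups were of other sizes and depths than those of the spleen, and the difference in counts was not tested.

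Of the genes at least 2-fold higher in spleen, 69.6% were also eligible in colon 1 and 70.1% in colon 2. In colon 1, 22 of them were at least 2-fold higher too, which is 11.96% of the spleen list and 24.2% of the colon 1 list. Only 39 genes of that colon 1 list were eligible in spleen and could overlap, and 22 of these 39 did. Of the spleen genes eligible in colon 1, 71.1% had the same sign. In colon 2, 19 were at least 2-fold higher, 10.3% of the spleen list and 37.3% of the colon 2 list. Only 22 genes of that colon 2 list were eligible in spleen, and 19 of these 22 overlapped. Of the spleen genes eligible in colon 2, 78.3% had the same sign. Their median log2 ratio was 0.35 in each colon library. Over all eligible genes 45.6% lay above 0 in colon 1 and 46.2% in colon 2, with medians of -0.06 and -0.04. Of the 34 genes lower in spleen, 14 were eligible in colon 1 and 11 in colon 2, and 85.7% and 81.8% of these had the same sign. At least 2-fold lower were 6 in colon 1 and 4 in colon 2. These are 17.6% and 11.8% of the spleen list and 6.25% and 13.8% of the colon lists. Of the lower colon genes, 43 in colon 1 and 13 in colon 2 were eligible in spleen.

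Named genes differed in how their ratios compared across the libraries. Vim kept its size, with log2 ratios in spleen, colon 1 and colon 2 of 1.90, 1.93 and 1.86, and Satb1 and Evl were lower in all 3, with -1.94, -2.45 and -2.53 for Satb1 and -2.26, -3.09 and -2.56 for Evl. Higher in all 3 libraries with a smaller ratio in colon were S100a11 (2.93, 1.56 and 1.24), Klrg1 (3.02, 1.15 and 0.83) and Glrx (3.39, 1.35 and 0.94), among others. For Klrg1 the colon levels were 780.5 against 351.8 CPM in colon 1 and 1014 against 570.6 CPM in colon 2, so the gate-low cells of the colon libraries lay on either side of gate-high spleen cells at 429.9 CPM. The ratio of Il2ra had the opposite sign in colon, with -1.63 (-2.10 to -1.20) in spleen, 0.72 (0.44 to 1.02) in colon 1 and 0.46 (0.32 to 0.60) in colon 2. Ly6c2 (-2.31, 0.21 and -0.53) and Stmn1 (4.89, -0.12 and 1.10) followed none of these patterns. Ccr7, the receptor of lymphoid recirculation, had a wider gap in colon, at 36.8 against 895.1 CPM in colon 1 and 98.4 against 857.2 CPM in colon 2. Trat1 was nearly absent from colon Tregs, at 3.21 and 0.514 CPM over all cells.

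**Figure D5:**
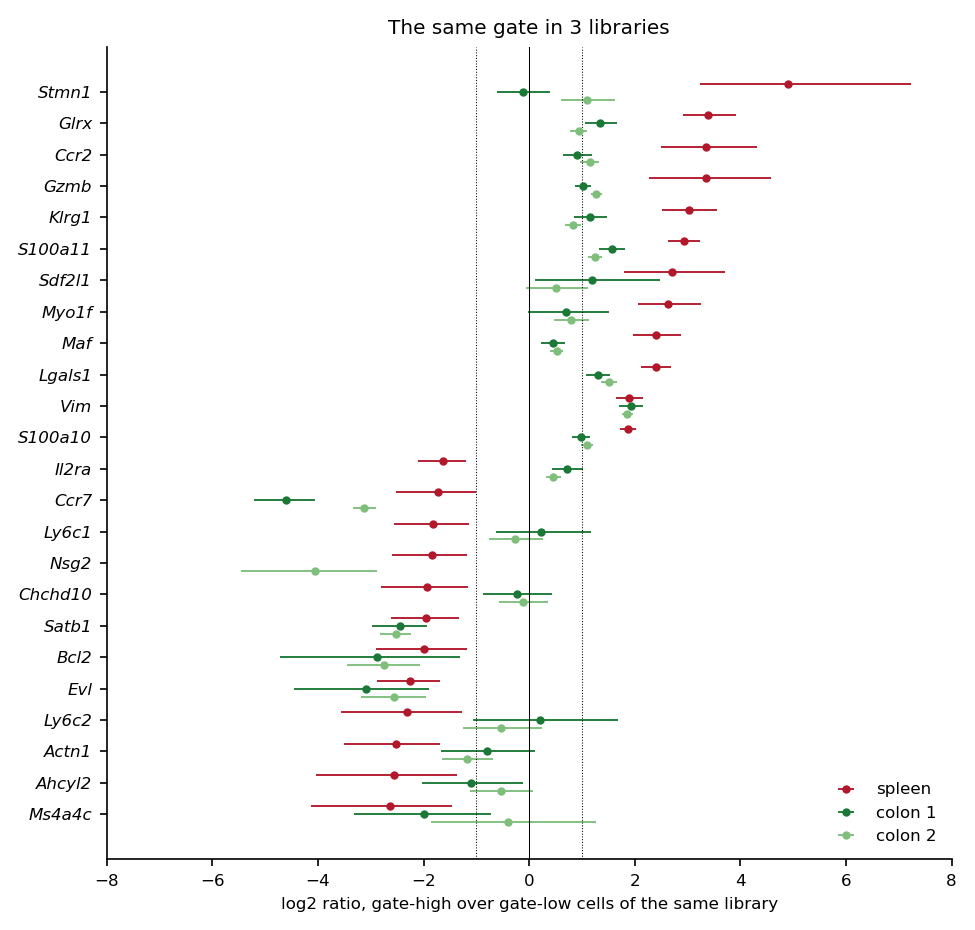
Log2 ratio of gate-high over gate-low cells of the same library (x) for the 12 highest and 12 lowest named genes in spleen, colon 1 and colon 2, with 95% counting intervals and dotted lines at 2-fold. Vim lies between 1.86 and 1.93, Satb1 and Evl lie below -1 in all 3, the S100 genes, Klrg1 and Glrx are nearer to 0 in colon, and Il2ra lies on the other side of 0 in colon. A library where either group has 0 UMIs of a gene has no point.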

How the data were processed

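UMI counts per gene and cell were deposited as 1 table of 23725 genes by 3008 cells, of which 7983 genes have no UMI. Per the labels' protocols, RNA was reverse transcribed in droplets from oligo-dT primers, amplified linearly by in vitro transcription and sequenced on a NextSeq500. TopHat2, SAMtools and mm10 are named, without versions, in the submitters' processing notes. How UMIs were collapsed, which annotation was used and how cells were chosen is not given in the sources used here. Colon 2 is a second replicate by its title but a rerun of the first by its sample type, so whether the colon libraries share animals is unknown.

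Of 617 spleen, 619 colon 1 and 1772 colon 2 cells, those under 1000 UMIs were left out (4, 9 and 28). The 613 spleen cells kept were 144 gate-high, 60 middle and 409 gate-low cells, with medians of 901, 790 and 708 detected genes. UMIs were summed over the cells of each group and divided by the group's total to give CPM. Log2 ratios carry exact conditional binomial intervals, levels exact Poisson intervals and shares Clopper-Pearson intervals at 95%, for counting error only. UMIs are counted molecules, but cells of 1 library are not replicates, so no p-value was computed. Genes at 100 CPM or more in either group were eligible, and at least 2-fold was the rule for a call, met by 184 higher and 34 lower genes in spleen. Gene lists (18) and other-cell marker lists (8) were read where both groups together held at least 20 UMIs of a gene, which a gene can reach through the group where it is high. Shares were also computed after thinning every cell to 1000 UMIs with a fixed seed. Genes named are the 12 highest and 12 lowest eligible genes by the interval end nearest to 0, a fixed set of Treg genes, up to 4 genes per list and the 10 genes most like the gate. A few genes that met this rule are not reported here. Genes named beyond these were chosen after their values were seen. Members, lists and comparisons were chosen with earlier results of these data known. Positions are from GENCODE vM21 on mm10, and promoter windows are from RefSeq on GRCm38.p6. Klrg1, Lgals1, Maf, S100a10 and Stmn1 had no window. Python 3.11.15, numpy 2.4.6, scipy 1.17.1, pandas 2.3.3 and matplotlib 3.10.9 were used, and scaling factors came from edgeR 4.0.16 and DESeq2 1.42.0 in R 4.3.3. The ratio and interval step was tested on simulated group counts, drawn as Poisson counts with no spread between cells. The summing of cells was not part of that test.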

Additional observations from a re-analysis of the deposited data

Results flagged for a closer look

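In 3 genes the gate separated spleen cells one way and colon cells the other way. The rule behind this choice first asked for 2-fold differences in opposite directions in both colon libraries, which no gene met. It was set looser after values were seen, to a 2-fold difference in spleen with intervals that leave out 0 on the other side in both colon libraries. The difference between tissues itself was not tested, and tissue and dissociation cannot be told apart. Il2ra, the interleukin-2 receptor alpha chain, had a log2 ratio of -1.63 in spleen (-2.10 to -1.20), with 142.3 CPM in gate-high and 441.8 CPM in gate-low cells. In colon 1 its levels were 689.8 CPM against 417.9, a ratio of 0.72 (0.44 to 1.02), and in colon 2 they were 873.2 CPM against 636.2, a ratio of 0.46 (0.32 to 0.60). Il2ra was therefore on opposite sides of 0, by 3.1-fold in spleen and by less than 2-fold in colon.

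Nfil3, a basic leucine zipper factor, had a log2 ratio of 3.97 in spleen (2.22 to 6.36) on 20 UMIs in gate-high and 3 in gate-low cells, against -0.59 (-1.04 to -0.13) in colon 1 and -0.24 (-0.48 to -0.01) in colon 2. Hmgb2, a chromatin protein of cycling cells, had 1.73 in spleen (1.42 to 2.03), with 634.4 CPM against 191.9, and -0.40 in both colon libraries (-0.74 to -0.06 in colon 1 and -0.63 to -0.16 in colon 2).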

How the results depend on the processing

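Of 1365 alternative values for 91 named genes, 1277 stayed within the gene's counting interval, 83 moved outside it and 5, all of genes past 2-fold, took the other sign. Among the 30 named genes within 2-fold, 13 values of 8 genes also had the other sign. The 5 were Bcl6 (0.066) and Fas (0.42) among cells with at least 2000 UMIs, Il10 (-2.80) with a gate of S100a4 and Itgb1, and Fosb (-0.82) and Mcm6 (-0.34) after thinning to 1000 UMIs. Of 61 named genes past 2-fold, 44 stayed so in every alternative run. Gate-high cells numbered 73 among cells with at least 2000 UMIs and 86 with a gate of S100a4 and Itgb1. The share of eligible genes at least 2-fold higher in gate-high cells, 10%, became 5.09% with TMM, 4.92% with DESeq2 factors, 13.15% at a minimum of 50 CPM, 9.25% at 300 CPM and 28.5% with no minimum. The share at least 2-fold lower, 1.85%, became 3.87% with TMM, 4.42% with DESeq2 factors, 5.74% with totals without ribosomal protein genes, 4.11% among cells with at least 2000 UMIs, 2.86% with a gate of S100a4 and Itgb1, 3.74% after thinning, 4.28% at 50 CPM, 1.16% at 300 CPM and 8.38% with no minimum. The minimum changes how many genes enter. TMM factors, DESeq2 factors and totals without ribosomal protein genes each lower all ratios by a fixed amount. These scalings also change which genes reach the minimum. The cause of the other shifts was not tested. Single genes moved too, with Ccr2 at 2.46 against all cells below the gate, and Stmn1 at 2.82 and Gzmb at 5.63 without the 5% of cells with the most UMIs. No paired analysis was possible because the spleen groups are cells of 1 library and replicate numbers only count the cells of a library, so they pair nothing. Depth limits genes under about 20 UMIs, and 1 spleen library leaves the spread between animals unknown.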
